A study of Mus musculus with 15 samples.

Results

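The stretch of mouse chromosome 10 that holds Mdm1, Il22, Ifng and Dyrk2 was read out from a 4C bait at Ifng in B cells, and in fat cell precursors before and during their differentiation to adipocytes. The assay, 4C-seq, a form of circular chromosome conformation capture, fixes chromatin, cuts it with a restriction enzyme, ligates fragments that lay close together, and counts how often each cut site was joined to a chosen bait site. The region was defined by position alone, as the HindIII sites of chr10:117500001-118900000 in the mm9 build, without those within 10 kb of the bait site, which begins at position 117870359. It holds 448 of the 823355 HindIII sites in the deposited files and of the 41008 sites on chromosome 10 outside the 10 kb zone. Of these sites, 120 lie on the low-coordinate side of the bait, out to 370 kb, and 328 on the high-coordinate side, out to 1030 kb, while 4 sites were left out with the zone.

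The B cell group is 1 library per bait of a B lymphocyte line for which the labels name neither the line nor a treatment. The other groups are 3T3-L1 cells, an established mouse line of fibroblast-like cells committed to the fat cell lineage, at days 0, 1, 2 and 6. Day 0 cells were confluent and not yet stimulated, and dexamethasone, 3-isobutyl-1-methylxanthine and insulin started differentiation. At day 2 this was replaced by medium with insulin, later by medium with serum alone, and by day 6 the cells are labelled as mature adipocytes. Each day has 2 files per bait, numbered 1 and 2, giving 8 libraries of 3T3-L1 per bait. The other baits lay at Pparg on chromosome 6 and Lpin1 on chromosome 12. The labels do not say whether the numbered files came from separate cultures, so every p-value measures the spread between these libraries only. Ligation counts hold no expression, and the labelled cell types could not be checked against marker genes.

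Interferon gamma, the product of Ifng, is a cytokine that activates macrophages and antiviral defence and is made chiefly by T cells and natural killer cells. Il22 encodes interleukin 22, a cytokine of lymphoid cells that acts on epithelia, and Iltifb is a second, nearly identical copy of Il22 in the reference strain. Neither cytokine is known as a product of fat cells, unlike the genes at the other baits of the study, Pparg, the master regulator of fat cell formation, and Lpin1, an enzyme of triglyceride synthesis. The flanking genes act elsewhere: Mdm1 encodes a microtubule-binding protein of centrioles, and Dyrk2 a protein kinase. In the RefSeq annotation of GRCm38.p6, another build than that of the files and used here only for names, order and promoters, the order of the named genes along the chromosome is Mdm1, Il22, Iltifb, Ifng, Dyrk2. Mdm1, Il22 and Iltifb therefore stand on the low-coordinate side of Ifng and Dyrk2 on its high-coordinate side. Between Il22 and Ifng stand Iltifb and 12 pseudogenes, and between Ifng and Dyrk2 stand 6 genes of long non-coding RNA and no protein-coding gene.

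The promoter sequences below show where the enzymes of the assay cut at the cytokine genes and how alike the copies of Il22 are. Each is the 250 bases before the annotated start on chromosome 10 of GRCm38.p6, written 5′ to 3′ on the gene's own strand, which is plus for Ifng and Il22 and minus for Iltifb. In the Ifng promoter the capitals mark GATC, the DpnII motif of the second digest, which occurred 1 time, while AAGCTT, the HindIII motif of the first digest, did not occur. In the Il22 and Iltifb promoters the capitals mark runs of at least 12 letters that the 2 sequences share.
Ifng: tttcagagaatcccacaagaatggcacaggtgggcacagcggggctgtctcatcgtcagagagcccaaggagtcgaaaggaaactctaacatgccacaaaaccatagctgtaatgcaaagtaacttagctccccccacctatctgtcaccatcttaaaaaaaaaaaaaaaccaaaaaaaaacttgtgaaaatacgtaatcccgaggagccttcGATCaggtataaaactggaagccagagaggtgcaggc
Il22: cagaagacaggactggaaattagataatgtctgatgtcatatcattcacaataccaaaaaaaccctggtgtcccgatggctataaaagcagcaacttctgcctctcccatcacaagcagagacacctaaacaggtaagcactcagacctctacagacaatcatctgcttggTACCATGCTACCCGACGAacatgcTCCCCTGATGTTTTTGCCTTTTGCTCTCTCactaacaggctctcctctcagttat
Iltifb: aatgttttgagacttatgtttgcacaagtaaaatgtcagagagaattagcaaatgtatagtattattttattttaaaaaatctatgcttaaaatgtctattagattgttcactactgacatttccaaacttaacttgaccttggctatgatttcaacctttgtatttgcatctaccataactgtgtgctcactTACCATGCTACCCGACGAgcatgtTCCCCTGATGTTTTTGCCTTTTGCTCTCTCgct
Both motifs read the same on both strands. In the same 250 bases before the start, over all 32851 RefSeq promoters of GRCm38.p6, AAGCTT was present in 6.22% and GATC in 41.9%. Only 48 of the 250 letters of Il22, and 48 of those of Iltifb, lay in shared runs of at least 12 letters. The longest run that Il22 and Iltifb shared was 30 letters, and in the best stretch of 60 letters without gaps 54 were identical. How the authors treated reads with several matches is not given in the sources used here.

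The Ifng libraries held 767419 to 2075226 reads, but 58.6% to 93.2% of these lay on the bait site itself. Chromosome 10 outside the 10 kb zone received 161856 reads in the B cell library and 73913 to 573095 in the 3T3-L1 libraries. The locus received 84606 reads in the B cell library and 28822 to 226309 in the 3T3-L1 libraries. Of the 448 sites, 303 were captured, with at least 1 read, in all 9 Ifng libraries and 71 in none.

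The locus took a larger share of the chromosome's reads in B cells than in any 3T3-L1 library. It held 52.3% of chromosome 10 reads in the B cell library (95% Wilson interval 52.0% to 52.5%, which covers counting error only), against 40.4% ± 1.13 in 3T3-L1 libraries (SD, n = 8, range 39.0% to 42.6%). The difference of 11.9 percentage points had a two-sided exact permutation p of 0.222, the smallest that 1 library against 8 can give. It depended on reads far from the locus: a stretch of 1.5 Mb, from 9.87 to 11.37 Mb away on the low-coordinate side, held 3.81% of chromosome 10 reads in the B cell library and 25.5% ± 4.23 in 3T3-L1 libraries (SD, n = 8). With that stretch left out of the denominator, the locus held 54.3% of reads in B cells and 54.4% ± 3.13 in 3T3-L1 libraries (SD, n = 8), a difference of -0.0406 percentage points. For that reason the following values are given as shares of the locus reads, which the distant stretch does not enter.

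Within the locus, B cell reads lay farther from the bait on the high-coordinate side. The locus was divided into 4 segments whose edges were set after the values were seen, so their sums are a description with no test. Between 230 and 830 kb on the high side, a segment of 206 sites that begins at chr10:118100001, the B cell library had 27.6% of its locus reads. The 3T3-L1 libraries had 16.5% and 7.61% at day 0, 14.7% and 8.18% at day 1, 14.3% and 6.74% at day 2, and 15.2% and 10.1% at day 6, with number 1 given first on each day. The B cell value lay above all 8, and within every day the number 1 library lay above number 2. Nearer the bait the B cell share was below all 8. From 10 to 230 kb on the high side, 65 sites held 39.5% of locus reads in the B cell library and 42.3% to 51.7% in 3T3-L1 libraries. On the low side, where Mdm1, Il22 and Iltifb stand, 120 sites held 31.0% in the B cell library and 36.9% to 40.7% in 3T3-L1 libraries. In the last 200 kb of the high side, 57 sites held 1.93% in the B cell library, inside the range of 1.39% to 3.34% of the 3T3-L1 libraries.

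**Figure D1:**
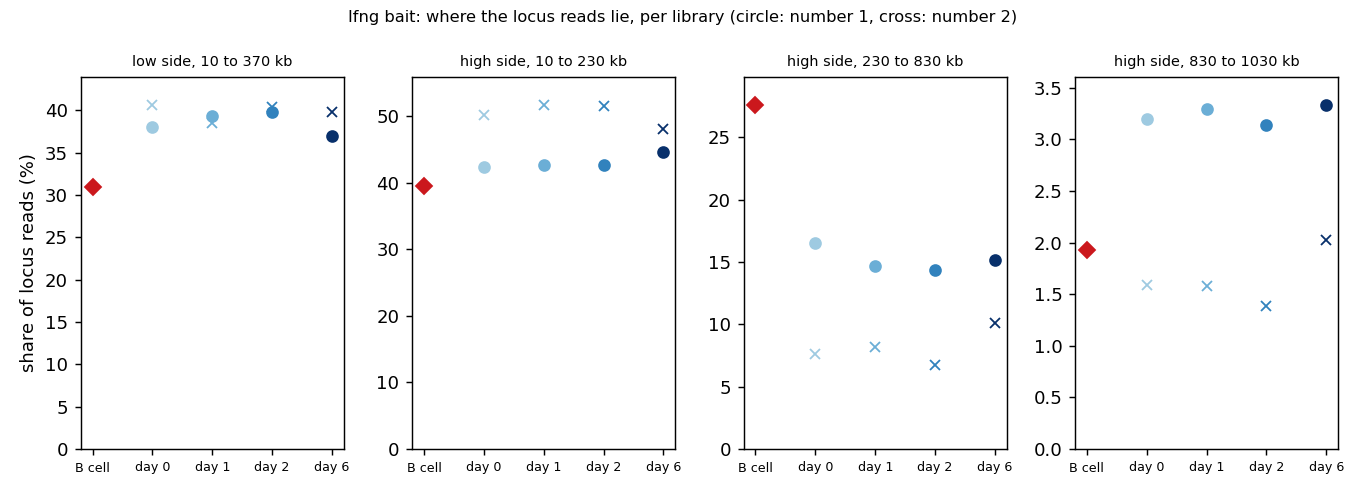
Share of locus reads (%) in 4 segments of the locus for the Ifng bait, 1 point per library, with the B cell library as a red diamond and the 3T3-L1 libraries by day as circles (number 1) and crosses (number 2). In the segment from 230 to 830 kb the B cell point, at 27.6%, lies above all 8 3T3-L1 points, and circles lie above crosses on each day.

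The same segments were also taken as shares of chromosome 10 reads, with and without the distant stretch. The segment from 230 to 830 kb held 14.4% of chromosome 10 reads in the B cell library, against 4.72% ± 1.61 in 3T3-L1 libraries (SD, n = 8, range 2.73% to 6.80%). Without the distant stretch these were 15.01% in the B cell library and 6.26% ± 1.85 in 3T3-L1 libraries (SD, n = 8). The low side held 16.2% in the B cell library and 15.8% ± 0.73 in 3T3-L1 libraries (SD, n = 8), and without the stretch 16.8% in the B cell library and 21.3% ± 1.75 in 3T3-L1 libraries (SD, n = 8). The high side out to 230 kb held 20.6% in the B cell library and 18.9% ± 1.59 in 3T3-L1 libraries (SD, n = 8), whose highest library had 20.8%. Without the stretch it held 21.4% in the B cell library and 25.5% ± 3.54 in 3T3-L1 libraries (SD, n = 8).

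The profile of 50-kb windows showed a step on the high side in 3T3-L1 libraries that the 1 B cell library lacked. Windows are on a fixed grid, and the grid window that holds the bait was split by side, which gives 29 windows, of which 28 had enough reads to be tested. The window chr10:118050001-118100000 held 2.09% of locus reads in the B cell library and 3.15% ± 0.43 in 3T3-L1 libraries (SD, n = 8). The next window, chr10:118100001-118150000, held 2.04% in the B cell library and 0.895% ± 0.325 in 3T3-L1 libraries (SD, n = 8). Both windows hold 12 sites. Across this boundary the share was thus lower on the far side in each of the 8 3T3-L1 libraries and nearly level in the B cell library. Both windows at the boundary, and the next one named, were picked after their values were seen. The largest ratio of the high side stood in chr10:118450001-118500000, with 3.37% of locus reads in the B cell library against 1.03% ± 0.36 in 3T3-L1 libraries (SD, n = 8, range 0.627% to 1.45%), a ratio of 3.28.

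**Figure D2:**
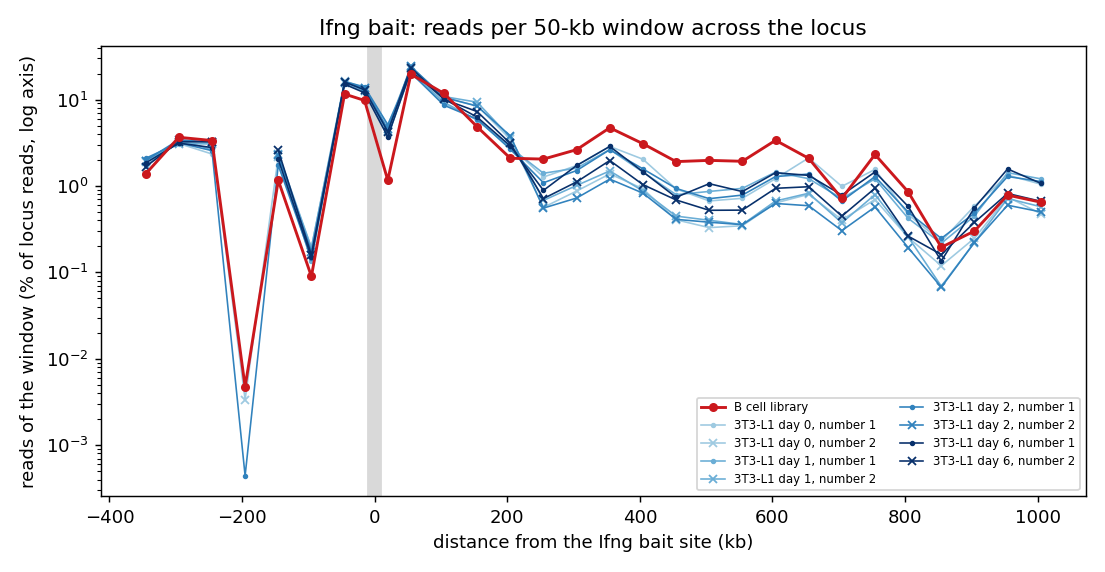
Reads per 50-kb window as a percentage of locus reads (log axis) against distance from the Ifng bait site (kb), 1 line per library, with the B cell library in red, 3T3-L1 days in blues and the left-out zone in grey. Windows with no read are not drawn. The B cell line lies above the 3T3-L1 lines from about 230 to 830 kb, except in the windows that begin at chr10:118500001 and chr10:118550001, and below them in the window just beyond the grey zone on the high side.

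On the scale of locus reads, the B cell library lay above all 8 3T3-L1 libraries in 13 of 28 tested windows (46.4%), against 36% of the 1898 tested windows of chromosome 10 on that scale. It lay below all 8 in 9 windows (32.1%), against 10.8% of all tested windows. Shares of locus reads add up to the whole within the locus, so higher windows there go with lower ones. Windows outside the locus are not bound in this way, so on this scale the share of all tested windows is not a like comparison. Of the 12 windows from 230 to 830 kb, 10 were above all 8. On the scale of chromosome 10 reads, 16 of 28 windows (57.1%) lay above all 8, against 42.9% of all, and 3 (10.7%) below, against 8.48% of all. The windows below all 8 on the locus scale included both windows next to the bait zone, chr10:117800001-117850000 and chr10:118000001-118100000.

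The fit across the chromosome called few windows of the locus, and both of its calls there were lower in B cells. edgeR's quasi-likelihood test with TMM scaling and Benjamini-Hochberg adjustment over 1898 windows called 2 of 28 locus windows, 0 higher and 2 lower, against 10.3% of all windows in either direction, 5.11% higher and 5.22% lower. At an unadjusted p under 0.05 there were 5 of 28, against 27.9% of all windows. The first call was the piece of chr10:117850001-117900000 on the high side beyond the bait zone. It held 1.16% of locus reads in the B cell library, from 985 reads, and 3.71% to 5.11% in 3T3-L1 libraries (median 4.41%). Its log2 difference, B cells over 3T3-L1, was -2.66 ± 0.94 (SE, edgeR, adjusted p = 0.0467). This piece has 2 HindIII sites, and nearly all of its reads lay on 1 of them, so it is in effect a measurement of 1 site. Leaving out day 0 number 1, day 0 number 2, day 2 number 2 or either day 6 library ended the call, with edgeR adjusted p from 0.0524 to 0.0944.

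The second call was chr10:117750001-117800000 on the low side, in a stretch with few captured sites. It held 76 reads or 0.0898% of locus reads in the B cell library, and 0.134% to 0.193% in 3T3-L1 libraries (median 0.166%), and its log2 ratio was -1.65 ± 0.46 with an edgeR adjusted p of 0.0096 (SE). Without TMM the ratio was -0.51, with an edgeR adjusted p of 0.718. With the replicate block, and the B cell library given number 1, it was -1.09, with an edgeR adjusted p of 0.0600, so the call was lost. Given number 2 it was -2.06 and passed, with an edgeR adjusted p of 4.31e-05. Among windows with more reads in B cells the smallest p belonged to chr10:118350001-118400000, which did not pass. It held 1.98% of locus reads in the B cell library and 0.329% to 1.06% in 3T3-L1 libraries (median 0.596%), and its log2 ratio was 1.09 ± 0.51 with an edgeR adjusted p of 0.144 (SE). It passed as higher without TMM (2.07, edgeR adjusted p of 0.000180), scaled to the locus (1.70, 0.00672) and with the replicate block (0.96, 0.00369). The other windows named for the most reads per site did not pass either. The low-side piece of chr10:117850001-117900000 held 9.76% of locus reads in the B cell library and 13.1% ± 0.68 in 3T3-L1 libraries (SD, n = 8), with a log2 ratio of -1.16 ± 0.98 (SE) and an edgeR adjusted p of 0.424. It passed with the replicate block, at -0.74 with an edgeR adjusted p of 0.00451. On the high side, chr10:117900001-117950000 held 19.6% in the B cell library and 20.1% to 24.2% in 3T3-L1 libraries, with a log2 ratio of -0.93 ± 1.04 (SE) and an edgeR adjusted p of 0.564. Without TMM the ratio of this window was 0.20, with an edgeR adjusted p of 0.653.

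The direction of the calls depended on the scaling. The TMM factor was 1.92 in the B cell library and 0.620 to 1.41 in 3T3-L1 libraries. It split by replicate number, with 1.06 to 1.41 in number 1 libraries and 0.620 to 0.943 in number 2 libraries. In chr10:117900001-117950000 the SE for B cells was 1.04 with TMM, 0.27 without TMM and 0.19 with TMM and the replicate block. In chr10:117750001-117800000 these were 0.46, 0.84 and 0.40, so the scaling changed the SE in both directions. Scaled to total chromosome 10 reads, edgeR called 11 windows higher and 1 lower in B cells, and all 11 lay among the 12 windows from 230 to 830 kb. Of all windows of the chromosome, 18.1% were called higher and 1.95% lower on that scale. Scaled to the reads of the locus, a setting added after the values were seen, 6 were called higher, against 9.64% of all windows, and 1 lower, against 2.16%. The 6 lay in the same segment. The median log2 difference over all 1898 windows was -0.13 with TMM, 0.88 with total reads and 0.50 with locus reads, beside -0.53, 0.61 and 0.24 over the 28 locus windows. The high-side piece next to the bait zone was called lower under each of these scalings, at -1.54 with total reads (adjusted p = 0.00526) and -1.91 with locus reads (adjusted p = 0.00196).

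With the replicate number as a block, the fit called 14 windows with TMM, 4 higher (4.27% of all windows) and 10 lower (6.64% of all windows). The B cell library has no number and was given number 1 there. Given number 2, a setting added after the values were seen, it called 20, 6 higher (3.06% of all windows) and 14 lower (6.22% of all windows). DESeq2 called 3, 2 higher (2.05% of all windows) and 1 lower (3.42% of all windows). On captured sites in place of reads, edgeR called 0 of 23 windows, with 0 at an unadjusted p under 0.05 (0% and 3.85% of all windows). The B cell library captured 80.1% of the locus sites and the 3T3-L1 libraries 76.3% ± 3.00 (SD, n = 8). This measure thus had little room to differ, and its 0 calls cannot show that the reads were alike. The B cell library is assumed in these fits to vary like the 3T3-L1 libraries.

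Single sites carried much of the signal near the bait. The sites named below are the 5 strongest of each cell line, a choice that favours differences in both directions, so those directions are not a result. The 10 sites with the most reads were taken in each library on its own, so they need not be the same sites. They held 27.1% of locus reads in the B cell library and 36.7% ± 1.68 in 3T3-L1 libraries (SD, n = 8). The strongest site of both lines, chr10:117858021-117858026 at 12.3 kb on the low side, held 5.06% in the B cell library and 7.55% ± 0.51 in 3T3-L1 libraries (SD, n = 8). Its neighbour chr10:117856684-117856689 held 4.71% in the B cell library, within the 4.68% to 6.77% of the 3T3-L1 libraries.

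A pair of sites on the high side differed most among those named. The site chr10:117895573-117895578, at 25.2 kb, was the third strongest in 3T3-L1 cells. It held 1.16% of locus reads in the B cell library and 4.39% ± 0.51 in 3T3-L1 libraries (SD, n = 8), whose lowest library had 3.70%. The site chr10:117963345-117963350, at 93.0 kb, went the other way. It had 2157 reads, 2.55% of locus reads, in the B cell library, and 58 to 134 reads, 0.0460% to 0.293%, in 3T3-L1 libraries. The site at 93.0 kb was named only because it was among the 5 strongest in the B cell library. The one at 25.2 kb was named only for its rank in 3T3-L1 cells. Their high values in those lines are thus the ground of the choice and not a result.

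The remaining named sites differed by less. The site chr10:117840452-117840457, at 29.9 kb on the low side, held 2.59% in the B cell library and 3.42% to 4.34% in 3T3-L1 libraries. The site chr10:117907543-117907548, at 37.2 kb on the high side, held 1.98% in the B cell library and 2.57% to 3.21% in 3T3-L1 libraries. The site chr10:117939839-117939844, at 69.5 kb on the high side, held 2.55% in the B cell library and 1.59% to 2.41% in 3T3-L1 libraries. The site at 37.2 kb was likewise named for 3T3-L1 cells only, and the one at 69.5 kb for the B cell library only. Reads at a site are amplified by PCR and were not counted by molecule, so the 1 B cell library gives no error for a single site.

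During differentiation the locus kept its share of chromosome 10 reads within the spread of the libraries. It held 41.1% and 39.8% at day 0, 42.6% and 39.8% at day 1, 39.5% and 40.5% at day 2, and 39.0% and 40.9% at day 6. The days overlapped. Day 6 minus day 0 was -0.494 percentage points, 39.96% ± 1.37 at day 6 and 40.46% ± 0.90 at day 0 (SD, n = 2 each), with a two-sided exact permutation p of 0.667. A comparison of 2 against 2 libraries cannot reach 0.05. Without the distant stretch the difference was -2.82 points.

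No locus window was called on any day. edgeR called 0 of 28 at day 1, day 2 and day 6 against day 0, and 0% of all tested windows in each contrast, and DESeq2 likewise called 0 in the locus. At an unadjusted p under 0.05 edgeR had 0 windows at day 1 (5.95% of all windows), 0 at day 2 (3.79%) and 1 at day 6 (6.16%). The window at day 6 was again chr10:117750001-117800000, with 0.149% and 0.158% of locus reads at day 6, against 0.189% and 0.192% at day 0. Its log2 ratio of day 6 over day 0 was -0.78 ± 0.38, with an edgeR adjusted p of 0.756 (SE). Without TMM this ratio was -0.33, with an edgeR adjusted p of 0.982. In that fit 0 locus windows had an unadjusted p under 0.05 at day 6 (4.53% of all windows). The median log2 difference of day 6 over the locus windows was -0.43 with TMM and 0.04 without. At day 6 and day 0 the libraries did not overlap in 4 of 28 windows, against 31.9% of all tested windows. The simulated fit recovered 0 of 200 windows changed 2-fold, 7 of 200 changed 4-fold and 135 of 200 changed 16-fold for day 6 against day 0. The simulation ran over all tested windows, not over the locus alone. It gave every window the same spread, taken from the fit with TMM, so its counts set no detection limit for the locus windows.

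The window chr10:118350001-118400000 had the smallest p among higher windows on each day and passed on none. It held 0.670% and 0.329% of locus reads at day 0, 0.864% and 0.401% at day 1, 0.712% and 0.380% at day 2, and 1.06% and 0.522% at day 6. Both numbers were higher at day 6 than their day 0 counterpart, and number 1 exceeded number 2 on every day. The log2 difference was 0.25 ± 0.53 at day 1, 0.11 ± 0.53 at day 2 and 0.18 ± 0.53 at day 6 (SE, edgeR, adjusted p = 1, 0.999 and 0.949). The lower window with the smallest p was chr10:118700001-118750000 at day 1 (-0.47 ± 0.38, adjusted p = 0.997) and chr10:118550001-118600000 at day 2 (-0.55 ± 0.51, adjusted p = 0.999). With the number as a block, 1 window was called at day 6, the high-side piece of chr10:117850001-117900000, at -0.75 ± 0.19 (SE, edgeR, adjusted p = 0.0147). That fit called 0.79% of all windows. Without TMM and with the same block the value was -0.28 (edgeR, adjusted p = 0.527) and 0 locus windows were called. The piece held 3.71% and 4.25% of locus reads at day 6, against 4.47% and 5.04% at day 0.

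The 3T3-L1 libraries differed by replicate number in the distant part of the locus. All 4 number 1 libraries lay above all 4 number 2 libraries in 15 of 28 windows as shares of chromosome 10 reads, against 12% of all tested windows. All 15 lay among the 16 windows beyond 230 kb on the high side. All 4 number 2 libraries lay above in 5 windows, against 1.48% of all windows, and 4 of these adjoin on the high side from chr10:117900001 to 118100000. From 230 to 830 kb the number 1 libraries averaged 15.2% ± 0.97 of locus reads and the number 2 libraries 8.17% ± 1.44 (SD, n = 4 each). In the distant stretch of 1.5 Mb the order was the opposite, with 21.8% ± 1.06 of chromosome 10 reads in number 1 libraries and 29.2% ± 2.01 in number 2 libraries (SD, n = 4 each). The B cell library, with 27.6% and 3.81%, lay beyond the number 1 libraries on both measures. The labels do not say what the numbers stand for, and their part in the comparison with B cells was not tested beyond the fits with the block.

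**Figure D3:**
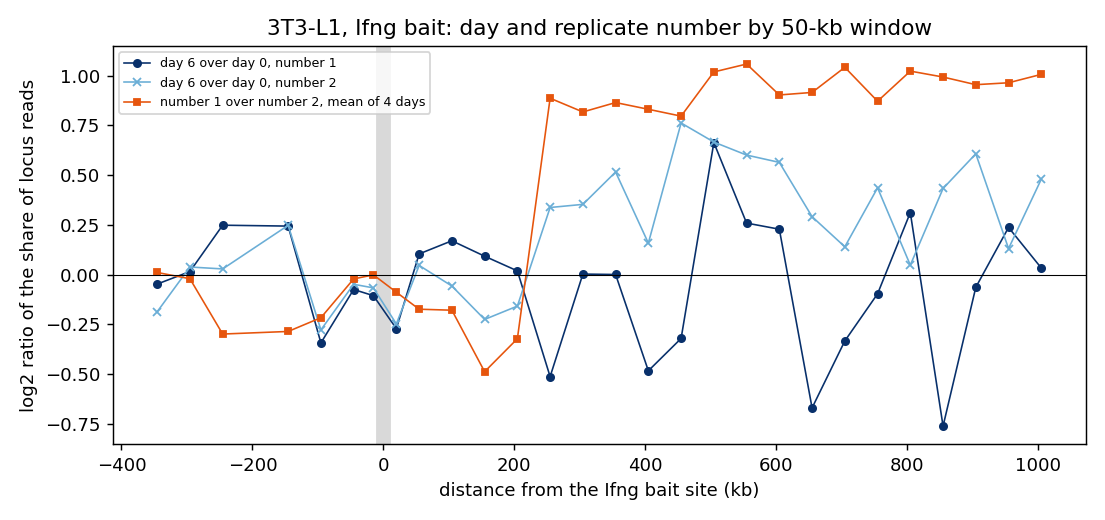
Log2 ratio of shares of locus reads per tested 50-kb window against distance from the Ifng bait site (kb) in 3T3-L1 cells, with the left-out zone in grey. The ratio of number 1 over number 2 (orange, means of 4 libraries each) lies near or below 0 out to 230 kb and between about 0.8 and 1.1 beyond it, while the 2 ratios of day 6 over day 0 (blues) scatter on both sides of 0 for number 1 and lie mostly above 0 beyond 230 kb for number 2.

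The 2 sides of the bait were compared at equal distances, from 10 to 350 kb. The low side, with the Il22 genes, took 40.5% of these reads in the B cell library (Wilson interval 40.1% to 40.8%) and 43.8% ± 1.54 in 3T3-L1 libraries (SD, n = 8, range 41.3% to 46.0%). The difference of -3.39 percentage points had the smallest possible exact permutation p of 0.222, on captured sites it was 2.25 points in the other direction, and with a 50 kb bait zone it was -0.609 points (exact permutation p = 0.444). At day 6 the low side took 43.5% ± 0.45, against 44.1% ± 0.93 at day 0 (SD, n = 2 each, two-sided exact permutation p = 0.667).

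The slope of the fall of reads with distance was compared on each side. On the high side the slope of log10 reads per site on log10 distance over 20 bins of 50 kb was -0.930 in the B cell library and -1.20 ± 0.18 in 3T3-L1 libraries (SD, n = 8, two-sided exact permutation p = 0.222, the smallest possible). The difference of 0.268 was 0.159 with a 50 kb bait zone, where the B cell value lay inside the 3T3-L1 values (exact permutation p = 0.889), and 0.0471 on captured sites. Among 3T3-L1 libraries it was -1.06 to -1.02 with number 1 and -1.43 to -1.24 with number 2. On the low side, over the bins with reads in every library, the slope was -0.441 in the B cell library and -0.537 ± 0.064 in 3T3-L1 libraries (SD, n = 8, range -0.615 to -0.449). With a 50 kb bait zone it was positive, at 1.77 in the B cell library and 1.77 in the mean of 3T3-L1 libraries. On captured sites it was 0.143 and 0.109. The low side thus showed no fall with distance in those settings. It holds the stretch with few captured sites described next, 70 to 220 kb from the bait.

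In a stretch of the low side most sites gave no read in any library. Its edges, chr10:117650001-117800000, were chosen after the values were seen, so the figures are a description. Its reads lay on few sites: its middle window, chr10:117700001-117750000, held 982 reads, 1.16% of locus reads, in the B cell library and 585 to 3956 reads, 1.71% to 2.59%, in 3T3-L1 libraries. Of its 54 HindIII sites, 38 (70.4%) were captured in no Ifng library, against 33 of the other 394 sites of the locus (8.38%). It had 22.2% of its sites captured in the B cell library and 15.7% ± 3.13 in 3T3-L1 libraries (SD, n = 8), beside 88.1% and 84.5% ± 3.06 in the rest of the locus. The baits on other chromosomes also captured few sites there, with 2 captures out of 972 possible in the stretch (0.206%) and 201 out of 7092 in the rest (2.83%). Of the 54 sites, 37 had no read in any of the 27 libraries. The sites are not packed more closely there, with a median of 1600 bp to the nearest other HindIII site, against 1003.5 bp in the rest of the locus. The annotation of the other build places 12 pseudogenes and Iltifb between Il22 and Ifng. Whether duplicated sequence there kept reads from being placed was not tested, since no genome of the files' build was used.

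Set beside the other baits at the same distances, the surroundings of Ifng took a smaller share of reads than those of Pparg. Reads from 10 to 350 kb on both sides made up 35.4% ± 1.75 of bait-chromosome reads for Ifng and 57.1% ± 3.15 for Pparg in 3T3-L1 libraries (SD, n = 8 each). The ranges, 32.7% to 37.5% for Ifng and 51.2% to 61.0% for Pparg, did not overlap. The difference was -21.7 percentage points (two-sided exact permutation p = 0.000155, the smallest possible, 0.000311 adjusted over 2 baits). On captured sites it was -1.31 points (exact permutation, adjusted p = 0.0567). The zones hold 213 sites for Ifng and 217 for Pparg.

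Against Lpin1 the result depended on the setting and on the replicate number. Ifng had 35.4% ± 1.75 and Lpin1 37.2% ± 3.47 (SD, n = 8 each), a difference of -1.77 points (exact permutation p = 0.219, adjusted 0.219). It passed as lower for Ifng on captured sites (-1.64 points, exact permutation, adjusted p = 0.0264), with reads per site capped (-4.71, adjusted p = 0.00280) and with a 50 kb bait zone (-5.78, adjusted p = 0.000466). Among number 1 libraries Ifng had 34.1% ± 1.43 and Lpin1 39.4% ± 1.47 (SD, n = 4 each). Among number 2 libraries Ifng had 36.7% ± 0.50 and Lpin1 35.0% ± 3.65 (SD, n = 4 each), so the order turned. The permutation test pooled the numbers. With the distant stretch left out of the reads of chromosome 10, a setting added after the values were seen, Ifng had 47.8% ± 4.79 (SD, n = 8) and the difference from Lpin1 was 10.6 points in the other direction (exact permutation, adjusted p = 0.000311). That setting left the share for Ifng lower than for Pparg, by -9.30 points (exact permutation, adjusted p = 0.000777). In the B cell libraries the shares were 39.5% for Ifng, 47.6% for Pparg and 37.9% for Lpin1. The B cell value of Ifng lay above all its 8 3T3-L1 values, but without the distant stretch it was 41.0% in the B cell library, below the 41.4% to 54.1% of the 3T3-L1 libraries. The B cell value of Pparg lay below all 8, and that of Lpin1 within its range of 30.4% to 40.8%.

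Seen from baits on other chromosomes, the locus was captured at 0.463 to 2.14 times the rate of all sites outside the bait's chromosome. The 3T3-L1 means were above 1 for both baits and the B cell values below 1. A multiple is the captured share of the locus sites over that of all sites outside the bait's chromosome. For the Pparg bait it was 0.691 in the B cell library, from 3 of 448 sites (exact 95% interval 0.138% to 1.94%), and 1.41 ± 0.53 in 3T3-L1 libraries (SD, n = 8, range 0.463 to 1.99), from 1 to 33 sites. For the Lpin1 bait it was 0.883 in the B cell library, from 13 of 448 sites (exact 95% interval 1.55% to 4.91%), and 1.27 ± 0.48 in 3T3-L1 libraries (SD, n = 8, range 0.816 to 2.14), from 3 to 20 sites. The two-sided exact permutation p was 0.444 for Pparg and 0.667 for Lpin1, where 0.222 is the smallest possible.

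At day 6 against day 0 the multiple was 1.52 and 1.47 for Pparg and 1.31 and 1.96 for Lpin1 (means, n = 2 each). The two-sided exact permutation p was 0.667 for Pparg. For Lpin1 it was the smallest that 2 against 2 libraries can give. That smallest p is larger than the 0.222 of 1 library against 8, so the test could not reach 0.05. The fits on captured sites in 500-kb windows tested 2 of the 3 windows that cover the locus and called 0 in either contrast with either bait, where 0.222% of all windows were called for Lpin1 in B cells and 0% in the other fits. At an unadjusted p under 0.05 these 4 fits had 1 such window, the one that begins at chr10:117500001, at -2.41 ± 1.07 for Lpin1 in B cells (SE, edgeR, adjusted p = 0.345). Of all windows, 6.86% and 11.3% had such a p in B cells for Pparg and Lpin1, and 6.6% and 7.02% at day 6. DESeq2 called 0 as well.

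The multiples of the locus stood beside much higher ones in the 1 Mb next to it on the low-coordinate side. The flank on the high-coordinate side was not measured, so the values describe 1 neighbour, with no test. The neighbouring 1 Mb on the low-coordinate side, which begins at chr10:116500001 and has 295 sites, had a Pparg multiple of 5.95 in the B cell library and 14.9 ± 5.17 in 3T3-L1 libraries (SD, n = 8). Its Lpin1 multiple was 6.91 in the B cell library and 18.1 ± 5.66 in 3T3-L1 libraries (SD, n = 8). Every library of both baits had a higher multiple in the neighbouring 1 Mb than in the locus.

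**Figure D4:**
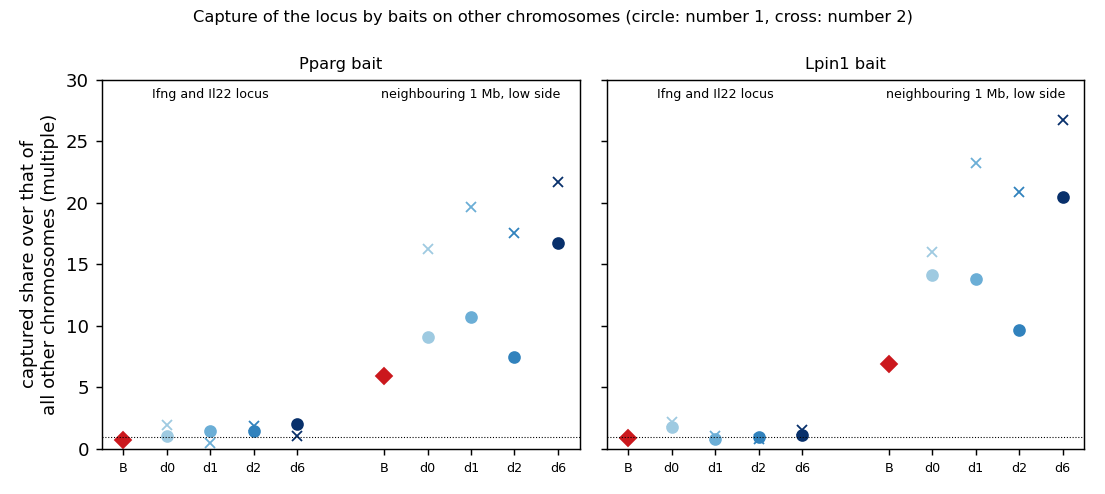
Multiple of capture by the Pparg bait (left) and the Lpin1 bait (right) for the Ifng and Il22 locus and for the neighbouring 1 Mb on the low-coordinate side, 1 point per library, with the B cell library (B) as a red diamond and 3T3-L1 days (d0 to d6) as circles (number 1) and crosses (number 2), and a dotted line at 1. Locus multiples stay at or below 2.14, while those of the neighbouring 1 Mb lie between 5.95 and 26.7.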

How the data were processed

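Column 4 of each deposited file was counts: whole numbers of reads at each HindIII site that the authors deposited without normalisation. The submitters' processing notes name Bowtie and mm9; the Bowtie version, read filters, multiple matches and duplicate removal are not given in the sources used here. Per the labels' protocols, cells were fixed with 2% formaldehyde, and chromatin was cut with HindIII and DpnII.

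The 9 Ifng libraries were summed over 50-kb windows of chromosome 10 and tested with edgeR 4.0.16 (R 4.3.3; robust quasi-likelihood fit, filterByExpr, TMM, 5 groups); DESeq2 1.42.0 was an alternative. Benjamini-Hochberg adjustment ran over 1898 windows, with a threshold of 0.05. B cells were contrasted with the mean of the 4 days. Shares were tested over libraries by two-sided exact permutation (Python 3.11.15, NumPy 2.4.6; p is double the smaller tail), and intervals came from SciPy 1.17.1. For Pparg and Lpin1, captured sites were summed in 500-kb windows with a mean of at least 3. The edgeR fit was tested on simulated data with the same spread in every window. With 200 windows changed, B cells against 3T3-L1 recovered 0 at 2-fold, 31 at 4-fold and 127 at 16-fold.

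The region, lists and alternatives were chosen with earlier results of these data known. Windows were named by rule: per contrast, up to 3 passing per direction by smallest p, else the smallest p as not passing, plus the windows beside the bait zone and those with the most reads per site. Sites named were the 5 strongest in each line. Replicate numbers come from the deposited names. Within the locus windows, same-numbered libraries of different days deviated together (r = 0.670 to 0.940 over the 6 pairs of days), so the block is given beside counts it changes; over all 1898 windows r was -0.0676 to 0.0651.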

Additional observations from a re-analysis of the deposited data

How the results depend on the processing

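For B cells against 3T3-L1, the 2 called locus windows became 1 with no filter, 1 in 25-kb windows, 0 on captured sites, 1 with a 50 kb bait zone, 1 with reads per site capped, 12 without TMM and 7 scaled to the locus total. With the replicate block they became 14, or 20 with the B cell library given number 2, and 15 without TMM and with the block. Leaving out 1 library gave 1 to 2. The day 6 count of 0 became 1 with the replicate block and 1 with a 50 kb bait zone. The block changed no other count of called locus windows. The window chr10:117900001-117950000, lower in B cells with TMM, had 0.20 without TMM and 0.28 without TMM and with the replicate block. In chr10:118350001-118400000, leaving out 1 library gave -0.0779 to 0.316 at day 2 and -0.00848 to 0.395 at day 6. The larger locus share in B cells was -0.340 points on captured sites and -0.0406 without the distant stretch. Its day 6 difference was 1.45 on captured sites, 0.630 capped, 0.302 with a 50 kb bait zone, and -1.46 to 0.475 without 1 library. The low-side share in B cells was 2.25 points higher on captured sites and -0.609 with a 50 kb bait zone. Its day 6 difference was 0.600 with a 50 kb bait zone and -1.27 to 0.0383 without 1 library. The high-side slope difference of 0.268 was 0.159 with a 50 kb bait zone and 0.0471 on captured sites. The low-side slope difference was -0.00186 with a 50 kb bait zone, where the slopes of both cell lines were positive. Ifng minus Pparg was -1.31 points on captured sites. Ifng minus Lpin1 passed on captured sites (-1.64), capped (-4.71) and with a 50 kb bait zone (-5.78), turned to 10.6 without the distant stretch, and was -2.74 to -1.25 without 1 library, passing without Lpin1 day 0 number 2. The Pparg multiple at day 6 minus day 0 was -0.0237 with at least 2 reads per site, -0.548 thinned, and -0.409 to 0.523 without 1 library. The cause of these changes was not tested, except that captured sites leave 23 windows and the 50 kb zone 26. Most locus sites were captured by the Ifng bait in both cell lines, so captured sites had little room to differ within the locus. Thinned to the shallowest library, 2 locus windows were called, both lower in B cells. With 1 B cell library per bait, library and cell line cannot be told apart.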
